A study of Mus musculus with 6 samples.

Results

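The 56 genes described here encode actin, the proteins that nucleate, elongate, cut, cap and bundle actin filaments, the myosin and tropomyosin of contractile filaments, the intermediate filament protein vimentin, and the proteins that tie filaments to integrin adhesions and to the membrane. They were chosen as a named list by function and matched by gene symbol. All 56 were found among the 16171 symbols of the count table, and 55 were tested. RNA was sequenced from Raw264.7 cells, a mouse macrophage line labelled WT, in 3 libraries of the THCaP group, where the titanium bore a nanowire coating of calcium phosphate, and 3 of the TH group, the control, where alkali and heat had left titanate nanowires on it. Cells of both groups had 12 h on the surface, then 2 h with 1 µg/mL of lipopolysaccharide (LPS, a bacterial activator of macrophages), and were collected after 1 d more. No group without LPS and none on another material entered the comparison, and nothing in the labels says that separate cultures gave the replicates. The p-values therefore measure the spread between these samples, which may be technical. In bulk RNA, fewer cells of a kind and less RNA per cell cannot be told apart.

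Macrophages carry little stress-fibre structure and rely on branched actin networks built by the Arp2/3 complex for spreading, membrane ruffling and phagocytosis. They grip a substrate through podosomes and small focal complexes, in which integrins are linked to actin by talin, kindlin, vinculin and paxillin. Many genes of this system are known targets of serum response factor (SRF), which binds a sequence called the CArG box and is held in check by free actin monomers through its cofactors Mrtfa and Mrtfb.

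Promoter windows, 250 bases before to 50 after an annotated start, were available from RefSeq on GRCm38.p6 for 47 of the 56 genes, and a CArG box was searched in them because of that link. Only exact matches to CCWWWWWWGG, where W is A or T, were counted, so sites with a mismatch were missed. The box is its own reverse complement, so a search of 1 strand covers both. It was found in 4 of the 47 genes (8.51%), Actg1, Vcl, Myl6 and Arpc4, and in 1.81% of the 27025 genes with such a window. In Arpc4 it lay at the outer edge of the window. No table entry was found for Actb, Diaph1, Cotl1, Coro1b, Marcks, Pxn, Ptk2, Ptk2b and Rock1. The windows of Actg1 (chr11:120348446-120348745, minus strand), Vcl (chr14:20929148-20929447, plus strand) and Myl6 (chr10:128492960-128493259, minus strand) are shown because they hold the box, in capitals, which begins 90, 227 and 50 bases before the start; Myl6 has 2 windows in the table and 1 holds it. That of Marcksl1 (chr4:129513331-129513630, plus strand) is shown because this gene changed most among the tested members that were well expressed. No exact CArG box is present in its window. All 12 genes called between the surfaces, as set out below, had a window, and 0 of them held the box.
Actg1: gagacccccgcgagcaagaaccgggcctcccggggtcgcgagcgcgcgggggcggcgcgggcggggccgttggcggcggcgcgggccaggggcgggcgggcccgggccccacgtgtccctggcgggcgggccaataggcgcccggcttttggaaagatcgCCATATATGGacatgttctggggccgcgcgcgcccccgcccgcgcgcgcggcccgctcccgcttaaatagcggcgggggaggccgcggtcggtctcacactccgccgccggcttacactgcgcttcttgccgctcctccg
Vcl: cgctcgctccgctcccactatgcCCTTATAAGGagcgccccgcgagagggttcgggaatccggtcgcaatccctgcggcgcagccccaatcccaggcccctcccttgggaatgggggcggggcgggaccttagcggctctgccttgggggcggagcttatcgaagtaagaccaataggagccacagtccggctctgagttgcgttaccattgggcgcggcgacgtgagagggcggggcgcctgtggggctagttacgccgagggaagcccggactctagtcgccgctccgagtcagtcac
Myl6: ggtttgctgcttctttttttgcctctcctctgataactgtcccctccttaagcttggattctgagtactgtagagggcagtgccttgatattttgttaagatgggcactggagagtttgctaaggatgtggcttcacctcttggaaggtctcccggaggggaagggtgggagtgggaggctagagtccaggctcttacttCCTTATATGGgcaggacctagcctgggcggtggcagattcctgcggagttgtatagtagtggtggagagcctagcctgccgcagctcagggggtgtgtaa
Marcksl1: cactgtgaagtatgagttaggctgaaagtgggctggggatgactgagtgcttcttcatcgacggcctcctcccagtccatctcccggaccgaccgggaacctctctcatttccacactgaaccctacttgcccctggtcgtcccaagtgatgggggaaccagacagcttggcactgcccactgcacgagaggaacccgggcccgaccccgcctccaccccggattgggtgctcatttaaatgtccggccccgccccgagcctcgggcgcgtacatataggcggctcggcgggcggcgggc

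Total counts ran from 28000099 to 29453473 in THCaP libraries and from 28198285 to 30317108 in TH libraries. Counts of replicates deviated beyond Poisson sampling, with a chi-square per degree of freedom of 12.5 to 48.4 within THCaP and 3.84 to 26.6 within TH. On the first principal component of all tested genes (60.5% of the variance), THCaP replicates 1, 2 and 3 lay at 19.3, 35.9 and 5.17 and the TH libraries between −22.2 and −16.3, so THCaP replicate 3 lay nearest to TH. TH replicate 1 stood apart on the second (13.7%). The macrophage identity of the cells was checked with 8 markers, whose summed level was 3118 to 3307 CPM (counts scaled to library size and by TMM composition factors) in THCaP libraries and 2880 to 3330 CPM in TH libraries. Of these markers 2 were higher on THCaP, Lyz2 (log2 fold change 0.63) and Mpeg1 (0.67), and 0 were called lower. The libraries of 3 others were all lower on THCaP without a call, Cd14 (−0.35, edgeR adjusted p = 0.0501), Cd68 (−0.23, 0.0643) and Ptprc (−0.19, 0.0998), and those of Csf1r all higher (0.31, 0.0504). Markers of fibroblasts (5 of 6 in the table, 0 tested) and of smooth muscle (5 of 5, 1 tested), cells rich in vimentin and tropomyosin, summed to 0.401 to 0.545 and 0.852 to 1.34 CPM in THCaP libraries, and to 0.215 to 0.685 and 0.602 to 1.58 CPM in TH libraries.

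The actin and adhesion genes did not move as a block. A gene was called when the adjusted p of edgeR's quasi-likelihood test, fitted over 11480 genes with Benjamini-Hochberg adjustment, was under 0.05. By this rule 7 of the 55 tested genes were higher on THCaP, 5 were lower and 43 were not called. The share called, 21.8%, was close to that of all tested genes, of which 23.6% were called, 11.6% higher and 12% lower. The roles described below hold few genes each, and their counts were not tested against these shares. The 7 higher were Flna, Tagln2, Tpm3, Was, Fermt3, Lcp1 and Myh9, and the 5 lower were Marcksl1, Zyx, Vim, Ezr and Tpm1. Their changes were small: Marcksl1 alone passed 1.5-fold, and 0 reached 2-fold. Among all tested genes, 928 were called with a change of at least 1.5-fold and 188 with at least 2-fold.

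**Figure D1:**
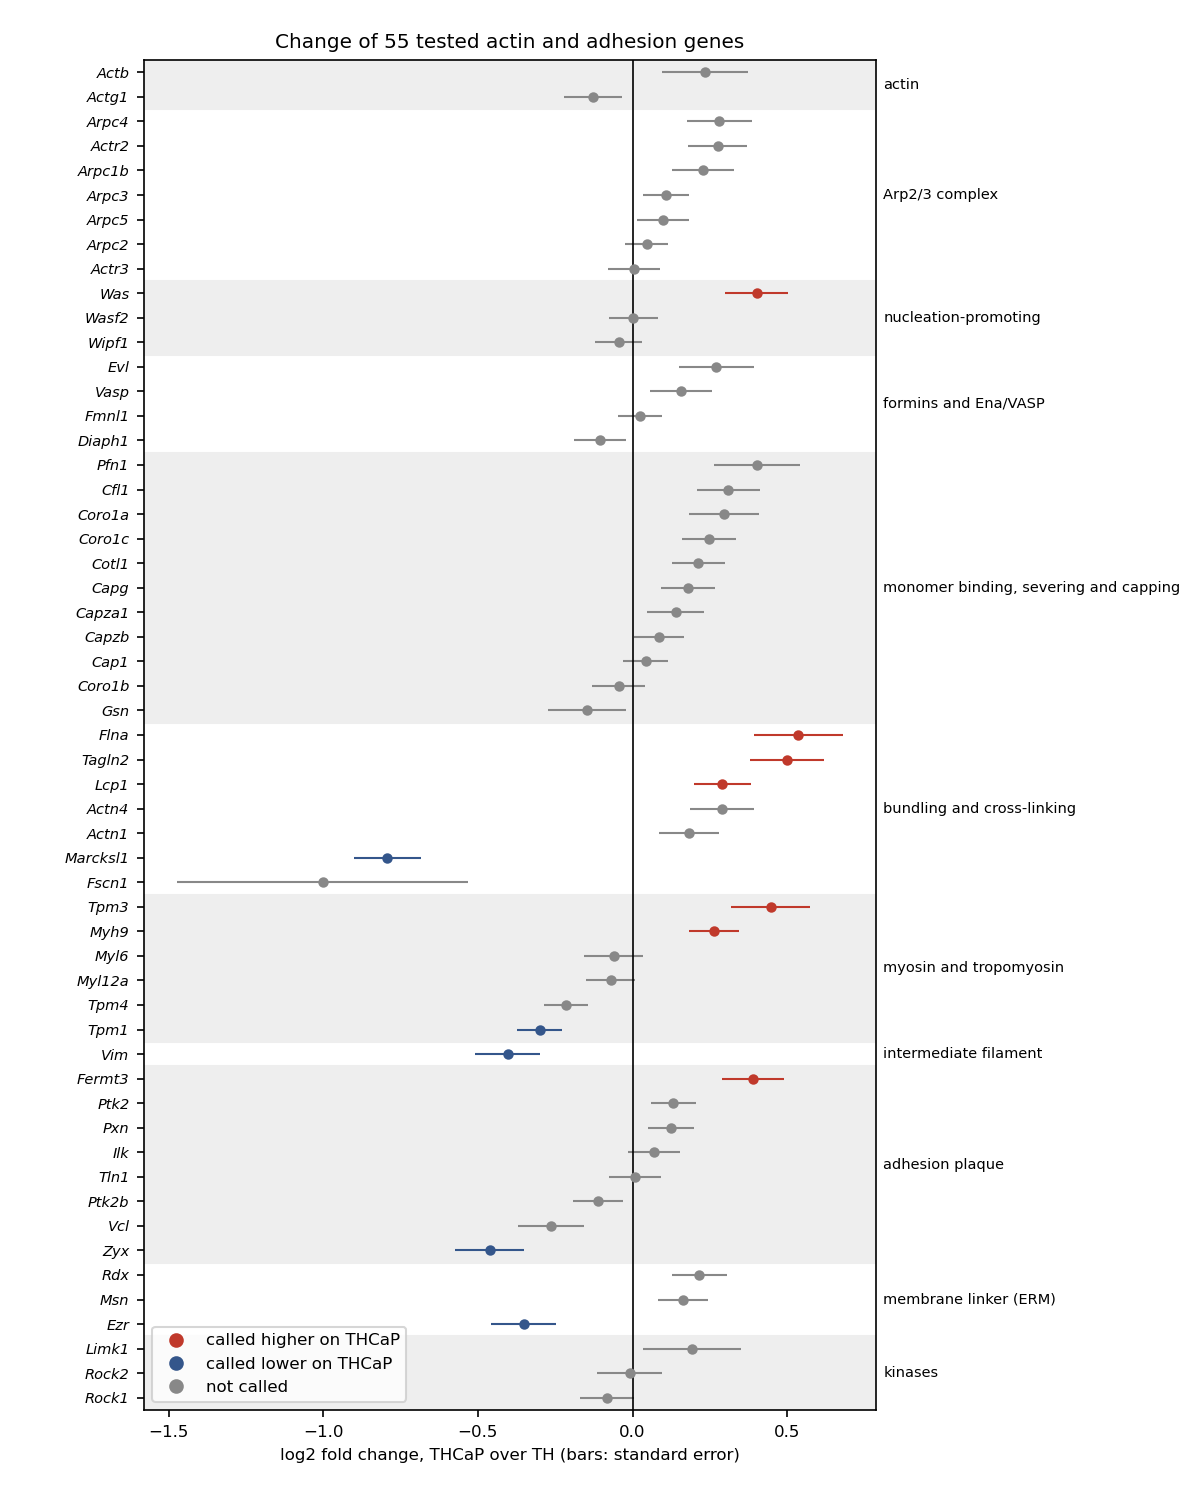
Log2 fold change of THCaP over TH for the 55 tested genes, ordered by role from top to bottom, with bars of 1 standard error; red points were called higher, blue points called lower and grey points not called. Called genes stand in several roles, and the points of the 7 listed Arp2/3 subunits all lie at or to the right of 0 without a call.

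The log2 fold change was above 0 for 37 of the 55 genes (67.3%) and for 50.7% of all tested genes. The medians were 0.11 and 0.0064. Without THCaP replicates 1, 2 and 3 in turn the members' median was 0.11, 0.066 and 0.12. The median level of the members relative to their mean over all 6 libraries was 0.046, 0.11 and −0.019 on the log2 scale in THCaP replicates 1, 2 and 3. In TH replicates 1, 2 and 3 it was −0.011, −0.076 and −0.062, so THCaP replicate 3 lay below TH replicate 1. When libraries were scaled by their totals alone, the split became 16 higher and 4 lower, while over all genes it became 1904 higher and 1063 lower.

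The counts depended on single libraries, and so did those of all genes. Without THCaP replicate 1, TH replicate 2 or TH replicate 3, 0 of the 55 genes were called higher and 1, 2 and 1 lower. The share of members called fell from 21.8% to 1.82%, 3.64% and 1.82%. Over all genes it fell less, from 23.6% to 6.53%, 6.91% and 6.77%. Without THCaP replicate 2, 4 were higher and 4 lower (14.4% called over all genes). Without THCaP replicate 3, 17 were higher and 6 lower (36%), and without TH replicate 1, 7 were higher and 4 lower (21.2%). Limma on log2(FPKM + 1) with no filter on low values kept 3 of the 12 calls, those of Marcksl1, Tpm1 and Myh9, and called 8.49% of all genes. Each of the 12 called genes was separated, with no overlap between the libraries of the surfaces. So were 2659 of the 2709 genes called among all those tested. Such separation was seen upward in 18 of the 55 genes and downward in 7, against 22.1% and 21.3% of all tested genes (43.4% together). In 10 of the 12 called genes THCaP replicate 3 was the THCaP library nearest to the TH mean.

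**Figure D2:**
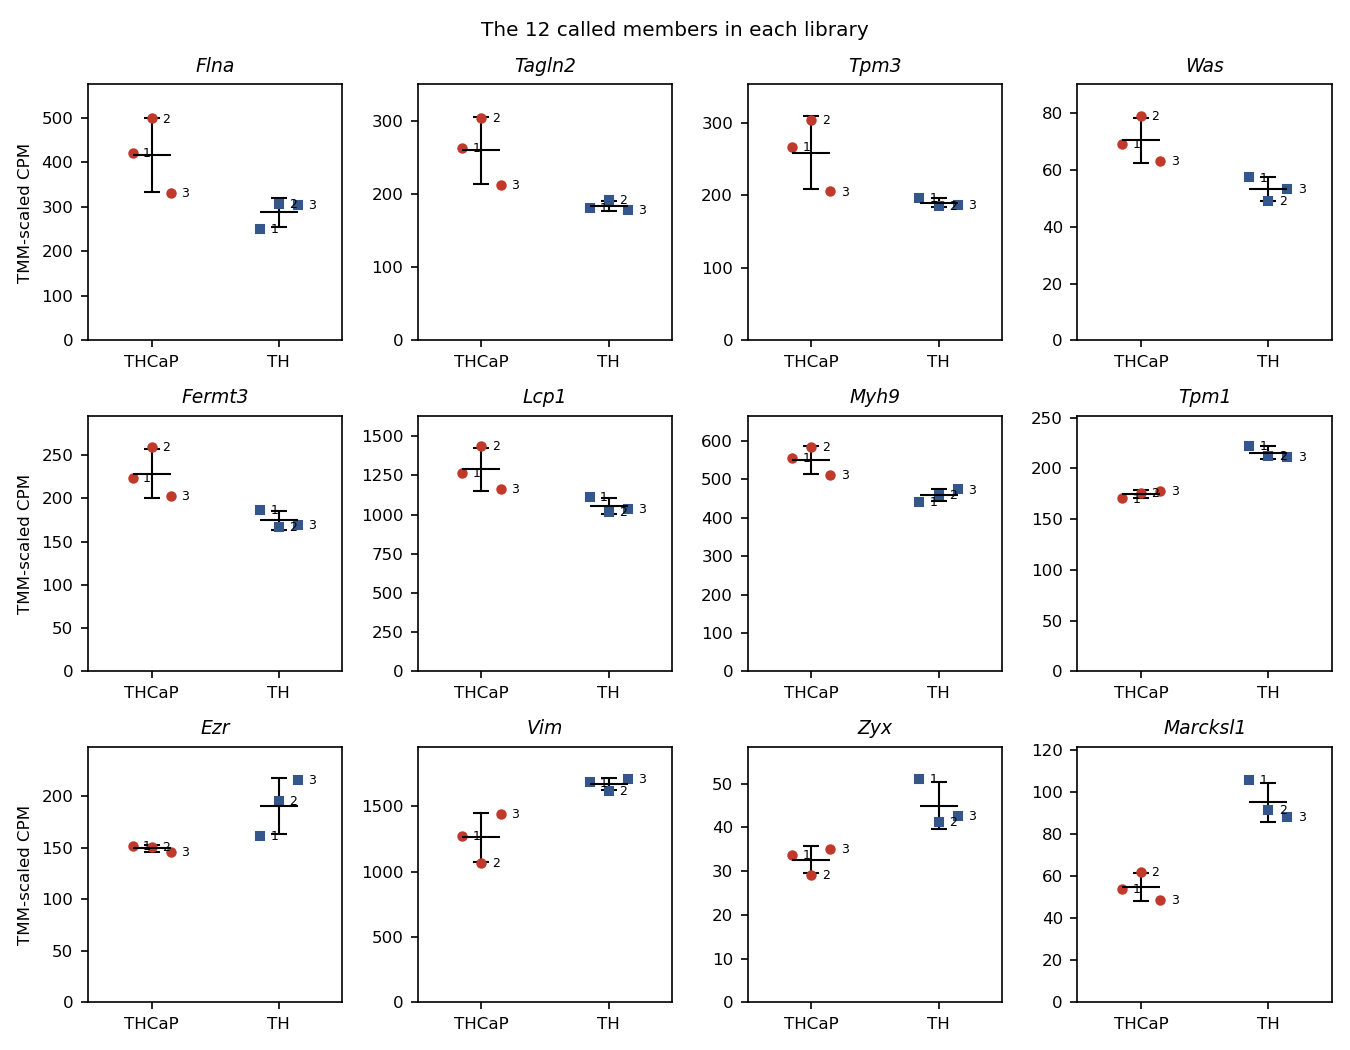
TMM-scaled CPM of the 12 called genes in each library, THCaP as red circles and TH as blue squares, numbered by replicate, with the group mean and SD as black bars. In most panels the point of THCaP replicate 3 lies closest to the TH points.

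RNA levels per length spanned a wide range, also between some paralogues. In CPM per kilobase of gene length, Actb averaged 966 on THCaP and 821 on TH, Vim 688 and 910.1, Arpc2 843 and 816, and Cfl1 809.9 and 653. At the other end stood Limk1 (3.98 on THCaP and 3.48 on TH), Evl (6.29 and 5.21), Fscn1 and Marcks. Marcks, a membrane-bound substrate of protein kinase C that binds actin, had 1 count in each of the 3 THCaP libraries and 0, 0 and 1 in the TH libraries. It did not pass the filter on low counts, and its count of 0 in TH replicates 1 and 2 leaves room for up to 3 counts, or 0.099 and 0.106 CPM. Its paralogue Marcksl1 carried nearly all reads of the pair. Fscn1, which bundles filaments in filopodia, had 3, 14 and 12 counts in THCaP libraries, against 24, 16 and 17 in TH libraries. It reached the filter's level of 0.348 CPM in all 3 TH libraries and in 2 of 3 THCaP libraries, and was not called (edgeR adjusted p = 0.144 for a log2 fold change of −1.003, SE 0.47). The other 54 genes were above that level in all 6 libraries.

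**Figure D3:**
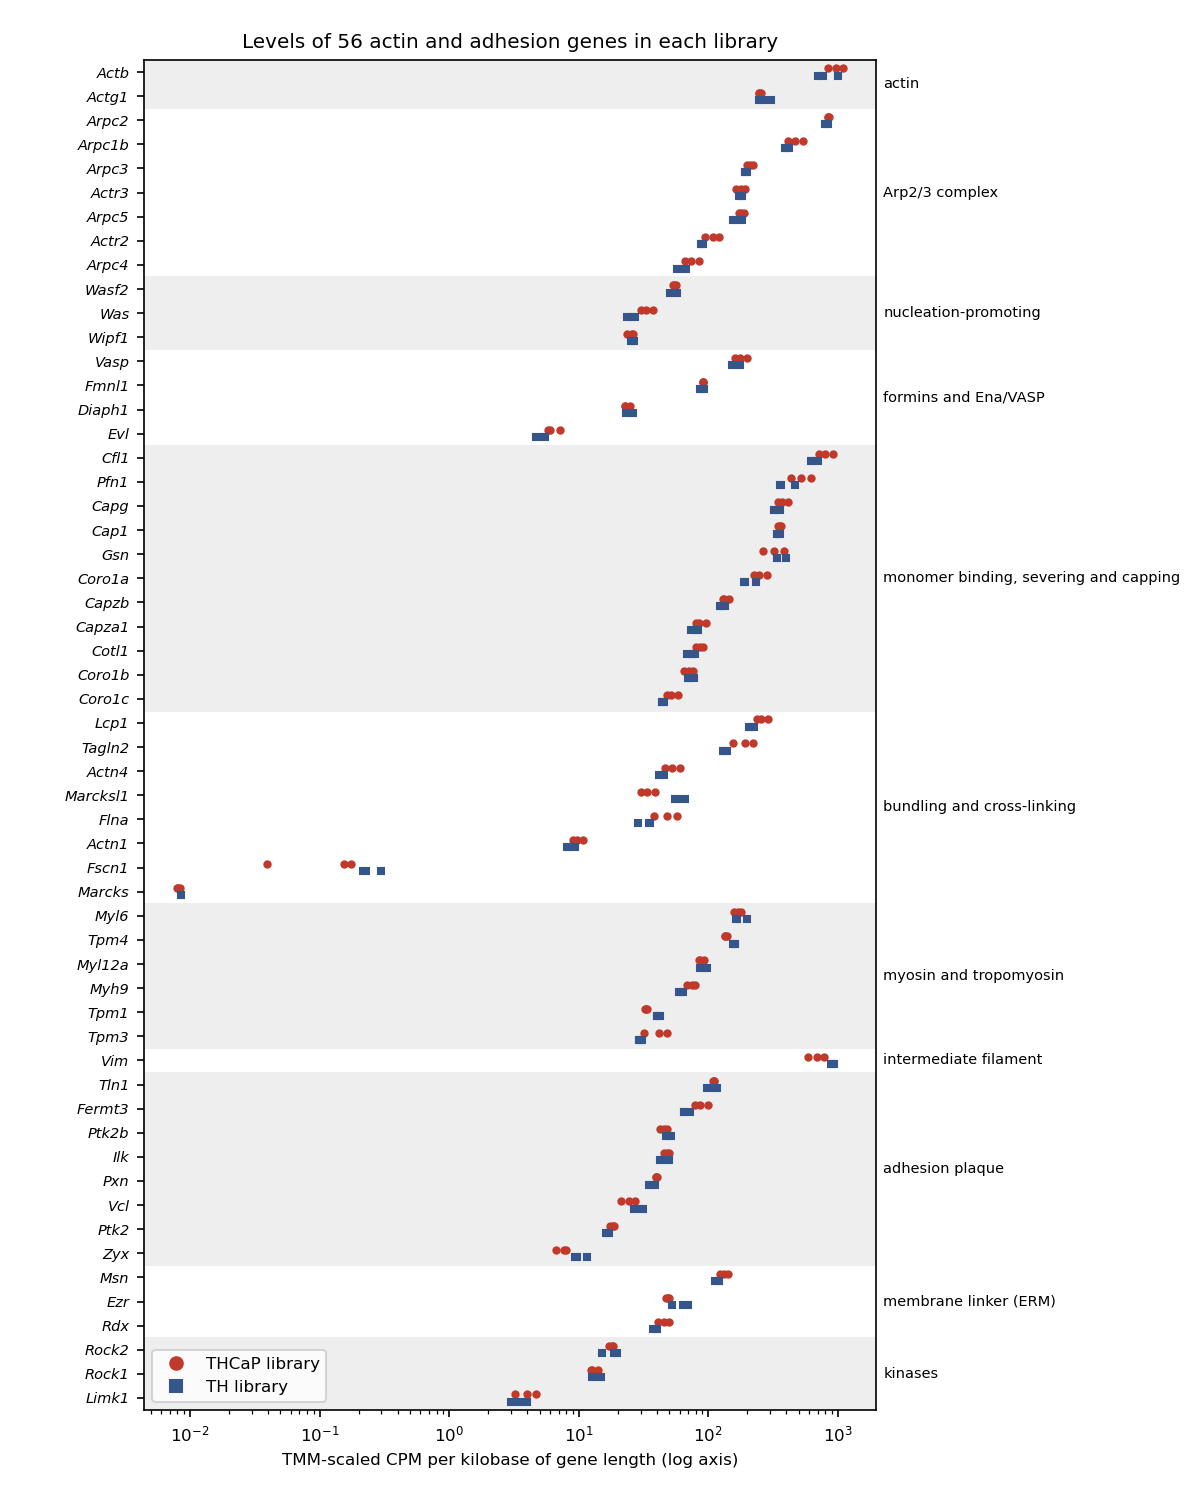
TMM-scaled CPM per kilobase of gene length, on a log axis, of each of the 56 genes in each library, by role; red circles are THCaP libraries and blue squares TH libraries, and the 2 TH libraries with 0 counts for Marcks are not drawn. Differences between genes span several orders of magnitude and exceed those between surfaces.

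Neither actin gene was called. Actb, the main cytoplasmic actin, stood at 1865, 2093 and 1608 CPM in THCaP libraries, against 1913, 1349 and 1468 CPM in TH libraries. TH replicate 1 lay among the THCaP values (log2 fold change 0.23, SE 0.14, edgeR adjusted p = 0.234). Without that library Actb was called higher (0.39, edgeR adjusted p = 0.0483). Actg1, the second cytoplasmic actin, had 482, 494 and 478 CPM on THCaP and 598, 477 and 514 CPM on TH (log2 fold change −0.13, SE 0.09). Its CArG box, shown above, is the site type through which SRF acts. Srf itself was not called (log2 fold change −0.08, SE 0.08), nor were its cofactors Mrtfa (−0.11, SE 0.08) and Mrtfb (0.16, SE 0.10). These are RNA levels, and SRF activity was not measured. Both actins have many processed pseudogenes, and how reads shared with them were counted is not given in the sources used here.

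The 7 listed subunits of the Arp2/3 complex, which starts branches on existing filaments, gave 0 calls. All 7 log2 fold changes were above 0, from 0.0041 for Actr3 to 0.28 for Arpc4, with a median of 0.11. Of all tested genes, 50.7% were above 0 and 23.6% were called. Actr2, which encodes the Arp2 subunit, had 398, 445 and 349 CPM in THCaP libraries, against 328, 324 and 334 CPM in TH libraries. The libraries did not overlap, but the adjusted p was 0.061 by edgeR (log2 fold change 0.28, SE 0.10). Arpc2, the subunit with the highest level per length, had 1199, 1221 and 1218 CPM on THCaP and 1209, 1167 and 1147 CPM on TH. Without THCaP replicate 3, Actr2, Arpc1b and Arpc4 were called higher. Actr2 was also called by DESeq2 (adjusted p = 0.032), and Actr2 and Arpc4 were called with library totals (0.0317 and 0.0441) and with both filtered log2 FPKM settings. The 2 further subunit genes outside the list were below 0 and not called, Arpc5l (−0.15, SE 0.07), whose libraries did not overlap, and Arpc1a (−0.03, SE 0.08). Of the activators of this complex, Was, the haematopoietic Wiskott-Aldrich syndrome protein, rose to 69.0, 78.8 and 63.0 CPM on THCaP, against 57.3, 49.1 and 53.2 CPM on TH (log2 fold change 0.40, SE 0.10, edgeR adjusted p = 0.0235). Wasf2, which acts in the WAVE complex, had 327, 308 and 319 CPM on THCaP and 295, 324 and 334 CPM on TH. Wipf1, which binds and stabilises the Was protein, was not called either (−0.05, SE 0.08). The call of Was was lost without THCaP replicate 1, TH replicate 2 or TH replicate 3 (edgeR adjusted p = 0.076 to 0.0991).

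The formins Diaph1 and Fmnl1, which build straight filaments, and the elongation factors Vasp and Evl gave 0 calls of 4. Vasp, the most abundant of them per length, had 396, 451 and 359 CPM on THCaP, against 393, 343 and 348 CPM on TH (log2 fold change 0.16, SE 0.10). Fmnl1 differed little, with 408, 407 and 406 CPM on THCaP and 416, 391 and 396 CPM on TH. Among the kinases Rock1, Rock2 and Limk1, which promote contraction and restrain cofilin, 0 of 3 were called. Rock2 had 136, 128 and 139 CPM on THCaP and 114, 150 and 141 CPM on TH, with TH replicate 1 the lowest of the 6 libraries.

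Genes for monomer binding, severing and capping gave 0 calls of 11, although 9 of the 11 log2 fold changes were above 0 (median 0.18). Over all tested genes, 23.6% were called and 50.7% were above 0. Cfl1, which encodes cofilin, the main severing protein, had 942, 1083 and 852 CPM in THCaP libraries, against 836, 748 and 736 CPM in TH libraries. The groups did not overlap and the adjusted p was just above the threshold (log2 fold change 0.31, SE 0.10, edgeR adjusted p = 0.0508). Pfn1, profilin, which loads monomers for elongation, had 669, 800.0 and 566 CPM on THCaP and 602, 474 and 463 CPM on TH, and TH replicate 1 overlapped THCaP replicate 3 (log2 fold change 0.40, SE 0.14, edgeR adjusted p = 0.0613). Coro1a (0.30, SE 0.11) and Coro1c (0.25, SE 0.09), coronins of branched networks, and Cotl1 (0.21, SE 0.09), which binds filaments, had adjusted p values of 0.0809, 0.0676 and 0.0991 by edgeR. Without THCaP replicate 3, these 5 genes were called higher, and DESeq2 called 4 of them, not Cotl1. Cfl1 and Pfn1 were called higher in 8 of the 16 alternatives each, with adjusted p of 0.00943 to 0.0464 and 0.00811 to 0.0489. The capping genes Capg (0.18), Capza1 (0.14) and Capzb (0.09) were not called, nor was Gsn, gelsolin (−0.15, SE 0.13), for which THCaP replicate 2 was the lowest library at 994, 814 and 1171 CPM on THCaP and 1212, 1048 and 1039 CPM on TH. Cap1 (0.04) and Coro1b (−0.05) lay near 0.

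Bundling and cross-linking genes held the largest changes, with 3 of 7 tested higher and 1 lower (57.1% called, against 23.6% of all tested genes). Marcksl1 fell 1.73-fold, to 53.8, 62.1 and 48.6 CPM on THCaP, against 106, 91.2 and 88.0 CPM on TH. Every THCaP library was well below every TH library (log2 fold change −0.79, SE 0.11, edgeR adjusted p = 0.00357). It was the only one of the 12 called genes whose call was kept under all 16 alternative settings, with adjusted p up to 0.0375. On GRCm38 Marcksl1 is a protein-coding gene on chromosome 4 at 129513581 to 129515985. Flna, filamin A, which joins filaments into orthogonal networks and binds integrins, rose to 421, 498 and 331 CPM on THCaP, against 249.9, 307 and 305 CPM on TH (log2 fold change 0.54, SE 0.14, edgeR adjusted p = 0.0282). Tagln2, an actin-binding transgelin, rose to 264, 304 and 213 CPM on THCaP, against 181, 192 and 178 CPM on TH (0.50, SE 0.12, edgeR adjusted p = 0.0197). In both, THCaP replicate 2 was highest and THCaP replicate 3 lay closest to TH.

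Lcp1, the leukocyte bundling protein L-plastin, had 1267, 1436 and 1162 CPM on THCaP and 1111, 1015 and 1035 CPM on TH (log2 fold change 0.29, SE 0.09, edgeR adjusted p = 0.0471). Among the calls of these genes, those of Flna and Tagln2 were lost without THCaP replicate 1 or any 1 TH library (edgeR adjusted p = 0.0697 to 0.0833 and 0.0519 to 0.0787). That of Lcp1 was lost without THCaP replicate 1 or 2 or TH replicate 2 or 3 (edgeR adjusted p = 0.121 to 0.155). The α-actinins Actn1 (0.18, SE 0.10) and Actn4 (0.29, SE 0.10) were not called. Actn4 was called higher in 5 alternatives, by DESeq2 (adjusted p = 0.0373), with library totals (0.0355), with both filtered log2 FPKM settings (0.0427 and 0.0428) and without THCaP replicate 3 (0.0079).

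Myosin and tropomyosin genes went in both directions, with 2 of 6 higher, 1 lower and 3 not called (50% called, against 23.6% of all tested genes). Tropomyosins coat filaments and set which myosins and severing proteins reach them. Tpm3 rose to 267, 304 and 205 CPM on THCaP, against 197, 186 and 187 CPM on TH (log2 fold change 0.45, SE 0.13, edgeR adjusted p = 0.0342). THCaP replicate 3 was only slightly above the TH libraries. Tpm1 fell to 171, 176 and 178 CPM on THCaP, against 223, 213 and 212 CPM on TH, with tight values on both surfaces (−0.30, SE 0.07, edgeR adjusted p = 0.0193). Tpm4, the most abundant of the 3 per length, had 284, 291 and 282 CPM on THCaP and 335, 325 and 335 CPM on TH, separated but above the threshold (−0.22, SE 0.07, edgeR adjusted p = 0.0516). It was called lower by DESeq2 (adjusted p = 0.0165), limma-voom (0.0494), with RLE factors (0.0493) and with a filter of 5 CPM (0.039).

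Myh9, the heavy chain of non-muscle myosin IIA, rose to 556, 585 and 512 CPM on THCaP, against 442, 460.1 and 474 CPM on TH (log2 fold change 0.26, SE 0.08, edgeR adjusted p = 0.0409). Its light chain genes Myl6 (−0.06, SE 0.09) and Myl12a (−0.07, SE 0.08) were not called. Myl6 had 152, 162 and 143 CPM on THCaP and 178, 147 and 151 CPM on TH, with overlap. Reads of Myl12a and of its near-identical neighbour Myl12b may have been split or lost in counting. The calls of Myh9 (edgeR adjusted p = 0.0654 to 0.156) and Tpm3 (0.065 to 0.112) were lost without any 1 library other than THCaP replicate 3. That of Tpm1 was lost without THCaP replicate 1, TH replicate 2 or TH replicate 3 (0.0692 to 0.111).

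Vim encodes vimentin, the intermediate filament protein of macrophages and mesenchymal cells. It fell 1.32-fold to 1274, 1069 and 1440.0 CPM on THCaP, against 1683, 1619 and 1706 CPM on TH (edgeR adjusted p = 0.0258 for a log2 fold change of −0.40, SE 0.11). The 3 TH libraries lay close together, while THCaP replicate 2 was lowest and THCaP replicate 3 nearest to TH. The call was lost without THCaP replicate 1 or any 1 TH library (edgeR adjusted p = 0.054 to 0.0938).

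The listed adhesion plaque genes gave 1 call in each direction among 8. Of 22 tested adhesion genes outside the list, 4 were higher and 8 lower (54.5% called, against 23.6% of all tested genes). These genes were chosen with earlier results of these data known, so their share was not tested. Fermt3, kindlin-3, the integrin activator of blood cells, rose to 224, 259 and 203 CPM on THCaP, against 187, 167 and 169.6 CPM on TH (log2 fold change 0.39, SE 0.10, edgeR adjusted p = 0.0254). Zyx, zyxin, which gathers Vasp at strained filaments, fell to 33.6, 29.2 and 35.1 CPM on THCaP, against 51.1, 41.2 and 42.5 CPM on TH (−0.46, SE 0.11, edgeR adjusted p = 0.0194). The call of Fermt3 was lost without THCaP replicate 1, TH replicate 2 or TH replicate 3 (0.0791 to 0.1) and that of Zyx without THCaP replicate 1 or TH replicate 3 (0.0529 to 0.0643). Tln1, talin-1, the partner of kindlin in integrin activation and the most abundant plaque gene per length, had 987, 988 and 963 CPM on THCaP and 875, 1005 and 1045 CPM on TH, and the groups overlapped (0.01, SE 0.08).

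Vcl, vinculin, which reinforces the talin link, had 135, 117 and 151 CPM on THCaP and 146, 172 and 167 CPM on TH, with overlap (log2 fold change −0.26, SE 0.11, edgeR adjusted p = 0.0974). It was called lower without THCaP replicate 3. The scaffold gene Pxn, paxillin (0.12, SE 0.07), the integrin-linked Ilk (0.07, SE 0.08) and the adhesion kinases Ptk2 (0.13, SE 0.07) and Ptk2b (−0.11, SE 0.08) were not called. Of the ERM genes, which tie the membrane to actin, Ezr, ezrin, fell to 152, 151 and 146 CPM on THCaP, against 162, 195 and 215 CPM on TH (−0.35, SE 0.10, edgeR adjusted p = 0.0389). That call was lost without THCaP replicate 1 or 2 or TH replicate 2 or 3 (0.0542 to 0.16) and when libraries were scaled by their totals alone (0.0563), and in the log2 FPKM settings (0.0662 and 0.0663 filtered, 0.129 unfiltered). Msn, moesin, the main ERM gene here, had 507, 544 and 473 CPM on THCaP and 434, 461 and 466 CPM on TH (0.16, SE 0.08), and Rdx, radixin, was not called (0.22, SE 0.09), except with library totals (edgeR adjusted p = 0.0498) and without THCaP replicate 3 (0.0245), where it was higher.

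Ratios of related genes within a library do not depend on how the libraries are scaled. Of 11 ratios, all per length, 7 did not overlap between the surfaces and reached p = 0.1, the smallest two-sided exact permutation p that 3 against 3 libraries allow, with a Benjamini-Hochberg adjusted p of 0.157. No ratio could therefore pass 0.05. Some ratios share a gene (Tpm3, Msn or Coro1a), and of all single tested genes 43.4% did not overlap; the share over other ratios was not computed. The Tpm1/Tpm3 ratio was 0.773, 0.7 and 1.05 in THCaP libraries, against 1.37, 1.38 and 1.37 in TH libraries. It was 0.603 times as high on THCaP, so that per length Tpm1 exceeded Tpm3 in every TH library and in 1 of 3 THCaP libraries. In CPM without the length, Tpm1 was still above Tpm3 in every TH library but below it in all 3 THCaP libraries (178 and 205 in THCaP replicate 3). The Tpm4/Tpm3 ratio was 3.25, 2.91 and 4.17 on THCaP and 5.17, 5.32 and 5.45 on TH. The Ezr/Msn ratio was 0.374, 0.347 and 0.385 on THCaP and 0.465, 0.530 and 0.578 on TH.

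Actg1/Actb was 0.254, 0.232 and 0.292 on THCaP and 0.307, 0.347 and 0.344 on TH, separated although neither gene was called. Actr3/Actr2, the ratio of the paired Arp subunits, was 1.65, 1.60 and 1.73 on THCaP and 1.93, 2.06 and 2.00 on TH. Ptk2/Ptk2b was 0.406, 0.444 and 0.364 on THCaP and 0.347, 0.353 and 0.322 on TH. In each of these pairs all THCaP libraries lay on one side of all TH libraries. Rdx/Msn was also separated, but by a difference of only 0.05 on the log2 scale. Actn1/Actn4, Coro1c/Coro1a, Coro1b/Coro1a and Rock2/Rock1 overlapped between the surfaces, with log2 differences from −0.34 to 0.08. Marcksl1/Marcks could not be formed because Marcks was at 0 in 2 libraries.

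**Figure D4:**
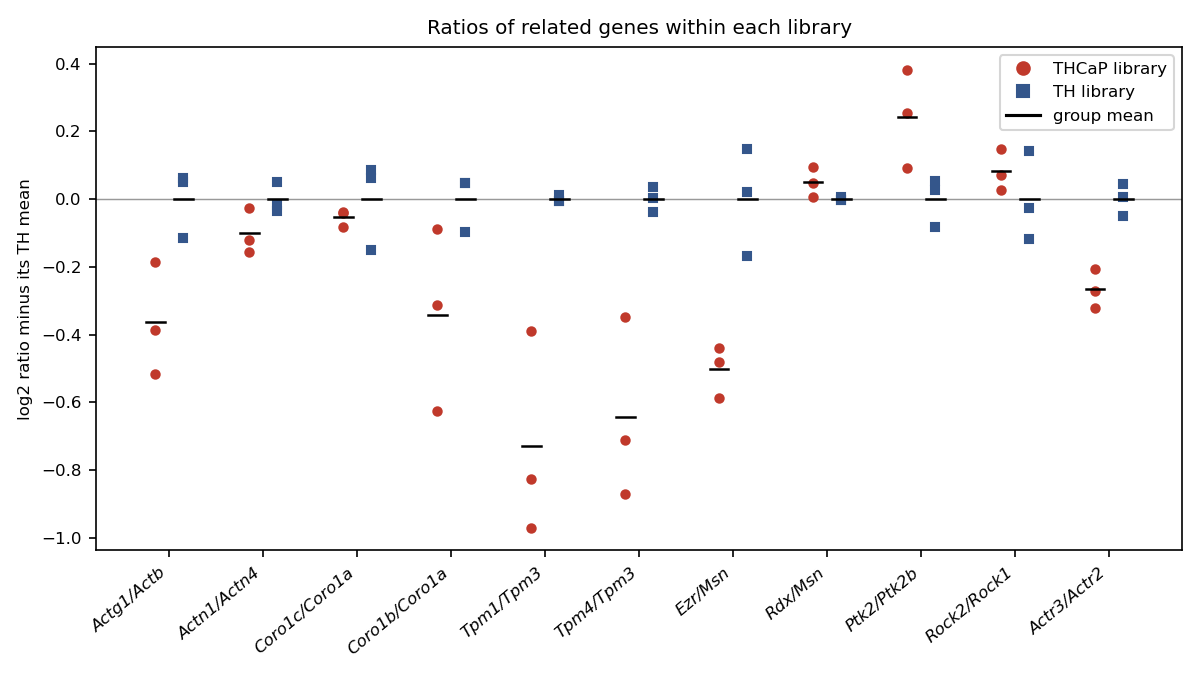
Log2 ratio of 11 pairs of related genes in each library, per length, with the TH mean of each ratio set to 0; red circles are THCaP libraries, blue squares TH libraries and black lines group means. The Tpm1/Tpm3, Tpm4/Tpm3 and Ezr/Msn ratios lie lowest on THCaP, with log2 differences of −0.73, −0.64 and −0.50.

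Other genes of the same pathway, 114 chosen for their function, held called changes of up to 1.93-fold. Of 98 tested, 10 were higher, 17 lower and 71 not called (27.6% called, against 23.6% of all tested genes). Their median log2 fold change was −0.066. By role, the share called ran from 0% (SRF and cofactors, 3 tested) to 54.5% (adhesion, 22 tested, median −0.16). The list was chosen with earlier results of these data known, so these shares were not tested. Rhoc, a small GTPase of contractile and motile cells, fell 1.93-fold to 88.4, 76.3 and 104 CPM on THCaP, against 181, 166 and 171 CPM on TH (log2 fold change −0.95, SE 0.11, edgeR adjusted p = 0.00218). Rhoa (0.07, SE 0.08), Rac1 (0.18, SE 0.08), Rac2 (−0.08, SE 0.07) and Cdc42 (0.09, SE 0.07), the better known GTPases of this system, were not called. Of 3 class I myosins, single-headed motors at the membrane, Myo1g was not called (−0.02, SE 0.08). Myo1f rose to 77.1, 74.5 and 72.6 CPM on THCaP, against 47.9, 41.4 and 42.9 CPM on TH (0.76, SE 0.08, edgeR adjusted p = 0.00168). Myo1e fell to 195, 169 and 227 CPM on THCaP, against 292, 323 and 342 CPM on TH (−0.70, SE 0.11, edgeR adjusted p = 0.00602).

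Nckap1, the WAVE complex subunit of non-blood cells, fell to 3.64, 4.31 and 4.57 CPM on THCaP, against 7.05, 7.39 and 8.38 CPM on TH (log2 fold change −0.86, SE 0.16). The adhesion scaffold Bcar1 fell (−0.76, SE 0.21), while Tln2, the second talin (0.60, SE 0.14), Abi3, a WAVE complex component (0.49, SE 0.12), and the formin Diaph3 (0.47, SE 0.12) rose. The calls of Rhoc, Myo1f, Myo1e and Nckap1 were kept under all 16 alternative settings. Those of the other 4 were lost without THCaP replicate 1 (adjusted p = 0.0705 for Tln2), and without other libraries as well for Bcar1 (up to 0.104), Abi3 (up to 0.0812) and Diaph3 (up to 0.0886).

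**Figure D5:**
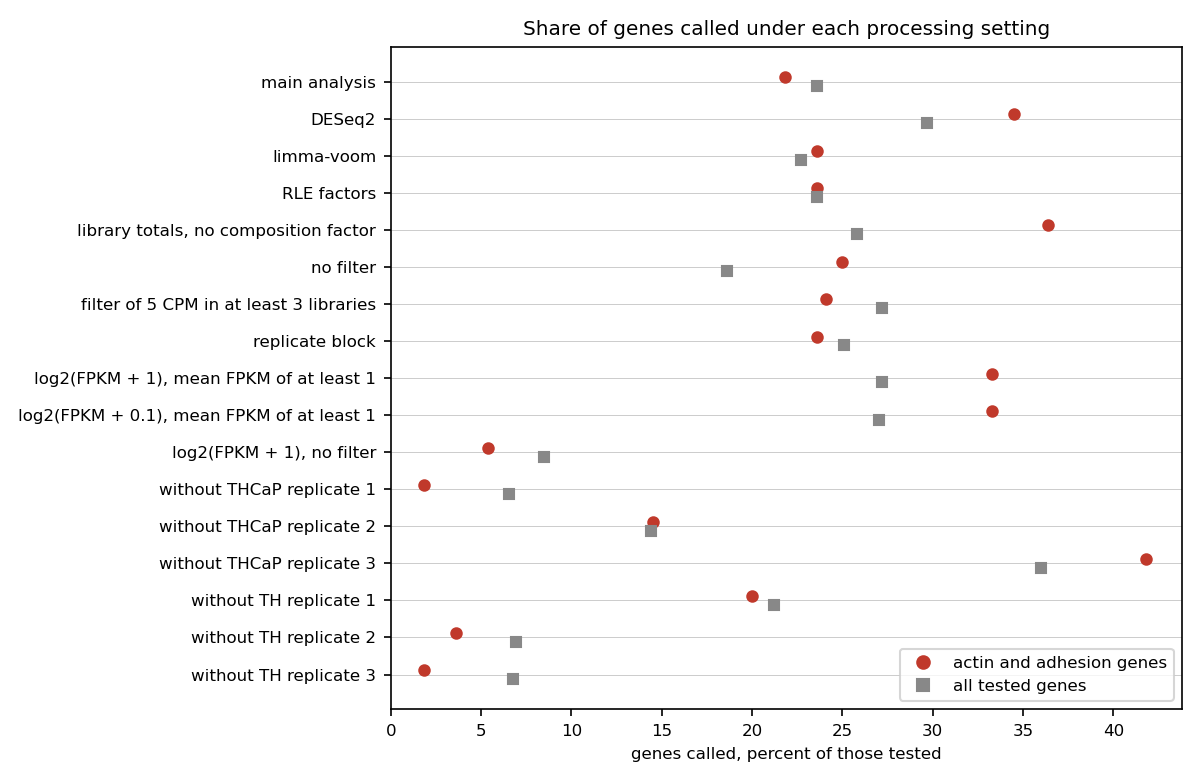
Percent of tested genes called under the main analysis and each of 16 alternative settings, for the actin and adhesion genes (red circles) and for all tested genes (grey squares). Both shares drop together without THCaP replicate 1, TH replicate 2 or TH replicate 3, and both are highest without THCaP replicate 3.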

How the data were processed

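The authors deposited raw counts, with a gene symbol for each row. The submitters' processing notes name fastp, HISAT2, HTSeq and build mm10. Tool versions, annotation and strand setting were not given in the sources used here. Overlapping, antisense or near-identical genes may share reads. The FPKM values deposited by the authors derive from these counts: the implied gene length was whole within 0.01 bases for 100% of the 11923 genes that reached 10 counts in some library. That length was used for levels per kilobase.

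The 11480 genes that edgeR 4.0.16 (R 4.3.3) kept with filterByExpr, set to a minimum count of 10 and a total of 15, entered its robust quasi-likelihood test of THCaP against TH. All 6 libraries were scaled by TMM and no covariate was used; the code was tested on simulated data. SE was obtained by dividing the size of the log2 fold change by √F. The members and lists were chosen with earlier results of these data known, so no list was tested. Values are given for called genes with at least 10 CPM and a log2 change of at least 0.4, both actins and the most abundant member of each role by rule, and for other members where a result turned on them. Of the other pathway genes, up to 4 per direction with at least 5 CPM were named, with 4 further GTPases, the SRF genes, Arpc1a, Arpc5l and Myo1g beside them, chosen after their values were seen; 1 gene looked at is not reported here. Limits on counts of 0 cover counting error only. Alternatives used DESeq2 1.42.0 and limma 3.58.1 (log2 of FPKM plus 1 or 0.1).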

Additional observations from a re-analysis of the deposited data

How the results depend on the processing

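The 7 higher and 5 lower genes became 13 higher and 6 lower with DESeq2 (34.5% of members and 29.7% of all genes called) and 16 and 4 with library totals (36.4% and 25.8%). With log2(FPKM + 1) and log2(FPKM + 0.1), both filtered at a mean FPKM of 1, they were 14 and 4 (33.3% of members, 27.2% and 27% of all genes), and with unfiltered log2(FPKM + 1) 1 and 2 (5.36% and 8.49%). Without each library in turn, the number higher ran from 0 to 17 and the number lower from 1 to 6, and the median log2 fold change from 0.066 to 0.13. The median, 0.11, was 0.17 with log2(FPKM + 1) and 0.17 with log2(FPKM + 0.1), both filtered. All 12 calls were kept by DESeq2, limma-voom, RLE factors and either other filter on counts. Deviations from the group means were little correlated between libraries with the same replicate number (−0.02, −0.072 and 0.06). With 3 libraries per group, whether the numbers pair libraries cannot be told from this. With the replicate number as a block, 8 genes were higher and 5 lower, and 11 of the 12 calls were kept, all but Myh9 (adjusted p = 0.0632).

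Signs turned only in 7 genes that were not called under those settings. With library totals Wipf1 was 0.0077, Coro1b 0.0074 and Rock2 0.044. With filtered log2(FPKM + 1), log2(FPKM + 0.1) and unfiltered log2(FPKM + 1), Wipf1 was 0.0063, 0.0065 and 0.0063, Coro1b 0.0067, 0.0068 and 0.0067, and Rock2 0.049, 0.052 and 0.049. Wasf2 was −0.0011 with DESeq2 and with RLE factors, and Rock2 1e-04 with limma-voom. With a filter of 5 CPM, Actr3 was −0.0059, Wasf2 −0.0071 and Tln1 −0.0033. Without 1 library, Actr3 ran from −0.056 to 0.062, Wasf2 from −0.050 to 0.039, Tln1 from −0.068 to 0.058, Coro1b from −0.098 to 0.006, Myl6 from −0.12 to 0.027 and Rock2 from −0.12 to 0.070. The cause of these shifts was not tested. The design of 3 libraries per surface limits which small changes can be called.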
